A study of Mus musculus with 3 samples.

Results

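The genes described here are named for the protein parts of the cytosolic ribosome. They were taken by symbol: every gene with a named probe set whose mouse symbol is Rpl or Rps followed by a number with at most 1 further letter, together with Rplp0, Rplp1, Rplp2 and Rpsa where named. Kinase genes of the Rps6k family and symbols ending in -ps or -like were left out. The rule found 60 genes among the 19505 named genes of the array, each with 1 probe set. Of these, 31 belong to the large subunit, 21 to the small subunit and 2 to the stalk of the large subunit, which makes 54 core genes. The other 6 are paralogs whose symbols end in l (Rpl3l, Rpl10l, Rpl32l, Rpl39l, Rps4l and Rps27l). RefSeq holds 81 protein-coding symbols that fit the rule. Of these, 22, among them Rplp2, Rps3, Rps27, Rpl13a and Rpl26, were not among the named probe sets used and were not analysed here. Not all of the 60 genes are therefore listed as protein-coding in RefSeq.

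The arrays measured total RNA of mouse CD8 T cells, activated through CD3 and CD28 and held in cytokines that favour the Tc1 type of cytotoxic effector. The control group was kept under this Tc1 condition alone, and the other groups received 0.5 or 0.75 µg/ml cholesterol on top of the same condition. Each group was 1 array, so the differences below have no replicate check and no p-value, and their precision is limited by the number of arrays. The sources used here do not give the mouse strain, the age and number of animals, the time of exposure or the carrier of the cholesterol. Cholesterol and its carrier cannot be told apart in this design.

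Ribosomes are built in the nucleolus from ribosomal RNA and about equal numbers of each ribosomal protein, and T cells that enter division make many of them. The messenger RNAs of ribosomal proteins begin with an unbroken run of pyrimidines, the terminal oligopyrimidine or TOP sequence, through which the growth kinase mTORC1 and the RNA-binding protein LARP1 control their translation and stability. The transcription factor MYC drives ribosome production at many steps, and free ribosomal proteins such as those of Rpl5 and Rpl11 bind the p53 inhibitor MDM2 when assembly is disturbed.

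Transcript probe sets had a median intensity of 43.3 on the control array, 43.5 on that of the lower dose and 44.5 on that of the higher dose. The CD8 T cell markers were present, with all 9 measured markers above background on all 3 arrays and a summed intensity between 24088 and 25455. Single markers moved at 0.75 µg/ml by as much as the lowest ribosomal protein genes: Cd8a by -0.35, Cd8b1 by -0.34, Cd3d by -0.34 and Cd5 by 0.41 on the log2 scale, with the first 3 within 0.03 of the control at 0.5 µg/ml. Their part in the results below was not tested. Background is taken as 102, the highest of the arrays' 95th percentiles of the negative-control probe sets. Among the markers of other cells, 4 of 5 B cell, 7 of 7 myeloid, 2 of 3 NK cell and 3 of 3 erythroid and platelet genes were under background on all 3 arrays. The B cell list's exception, Cd79b, was near background at 111, 100 and 105 from the control to the higher dose. The NK list's exception, Eomes, is also made by CD8 T cells. The defining gene Cd4 was at 61.6, 39.4 and 35.7 from the control to the higher dose, under background, while the CD4-lineage factor gene Zbtb7b was above it at 178, 235 and 209. Cd40lg, the other measured CD4 T cell marker, was under background on all 3 arrays, and the part of these genes in the results was not tested. Probe sets differ in brightness, so a level of one gene is not set against that of another. Fewer cells of a type and less RNA per cell cannot be told apart in such bulk samples.

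Pyrimidine runs at the start site were more frequent among these genes than among all genes, although most of them had none of at least 5 bases at the annotated start. The windows below, from RefSeq on GRCm38.p6, run from 15 bases before the start site to 15 bases from the start base on, with the longest run of pyrimidines that touches the start base or the next 2 in capitals. For genes with several annotated starts, such as Rps21, Rpl22 and Rps27l, the start with the longest run is shown. Shown first are the 5 core genes with the lowest differences at 0.75 µg/ml among those with a window, and then Rps6, the target of the S6 kinases.
Rps15a, chr7:118116133-118116162, minus strand: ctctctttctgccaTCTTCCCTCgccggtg
Rpl38, chr11:114668565-114668594, plus strand: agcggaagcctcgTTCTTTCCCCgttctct
Rpl37, chr15:5116598-5116627, plus strand: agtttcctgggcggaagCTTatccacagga
Rps18, chr17:33955651-33955680, minus strand: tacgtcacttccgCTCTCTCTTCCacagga
Rps21, chr2:180257364-180257393, plus strand: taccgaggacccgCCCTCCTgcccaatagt
Rps6, chr4:86857353-86857382, minus strand: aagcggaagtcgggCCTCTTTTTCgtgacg
These windows hold runs of 9, 10, 3, 11, 7 and 10 pyrimidines. Other genes near the low end had short runs, with 3 bases in Rps7, 1 in Rps15 and 3 in Rps19. A relation between run length and difference was not tested. Next come the genes that were not lower at 0.75 µg/ml, then the related pair Rpl22 and Rpl22l1, which differed most from each other, and the paralog Rps27l.
Rps23, chr13:90923107-90923136, plus strand: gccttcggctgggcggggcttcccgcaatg
Rpl41, chr10:128549154-128549183, minus strand: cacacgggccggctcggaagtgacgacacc
Rpl22, chr4:152324421-152324450, plus strand: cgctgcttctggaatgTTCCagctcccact
Rpl22l1, chr3:28805493-28805522, plus strand: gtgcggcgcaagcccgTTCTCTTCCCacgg
Rps27l, chr9:66946071-66946100, plus strand: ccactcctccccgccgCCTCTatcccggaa
Rps23 and Rpl41 have no pyrimidine at the annotated start, Rpl22 has a run of 4, Rpl22l1 one of 10 and Rps27l one of 5. RefSeq starts are annotated and not mapped in these cells, so a start that is off by a few bases hides a run.

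A promoter window was given for 42 of the 54 core genes. Where a gene had several annotated starts, its longest run and a motif at any of them were counted, in core and in all genes alike. A run of at least 5 pyrimidines was found in 16 of the 42 (38.1%), against 17.0% of all 15691 named genes with a window. Runs of at least 10 were found in 10 (23.8%), against 3.22%. Among 9 short motifs searched on both strands of the 300 bases from 250 before to 50 after the start, CCGGAAG, a binding letter sequence of ETS-family factors, was present in 18 of 42 core genes (42.9%) and in 13.2% of all genes. The shorter CGGAAG inside it was present in 28 (66.7%) against 24.2%. The pyrimidine-rich CTCTTTCC was present in 8 (19.0%) against 3.58%, and CTTTCC, which it contains, in 22 (52.4%) against 29.1%. AAGATGGC, part of the YY1 site, was in 3 (7.14%) against 3.64%. GGGCGG of SP1 (57.1% against 51.2%), the MYC box CACGTG (9.52% against 9.26%) and TATAAA (11.9% against 14.6%) were about as common in core genes as in all genes. The sterol-response element of the LDL receptor gene, searched without mismatches, was in 0 of the 42 core genes and in 0.0765% of all genes. A match describes letters and not a bound site.

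**Figure D1:**
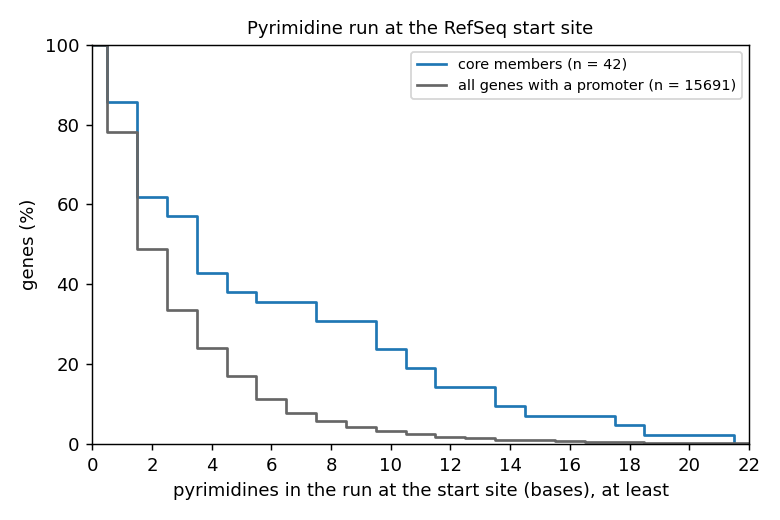
Share of genes (vertical axis, percent) whose annotated start site touches a run of at least the given number of pyrimidines (horizontal axis, bases), for the 42 core ribosomal protein genes with a promoter window and for all 15691 genes with one. The line of the core genes lies above that of all genes from 1 to 21 bases, the longest run in a core gene, with 38.1% against 17.0% at 5 bases.

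At 0.5 µg/ml the ribosomal protein genes stayed close to the control. Of the 60 genes, 58 passed the filter on low values, a mean log2 value of at least 5.02, and the 2 that did not, Rpl3l and Rpl39l, were under background on all 3 arrays. In the 58, the median log2 difference from the control was -0.01 (middle 50% of genes -0.08 to 0.02), where the median of all 10940 genes past the filter was 0.01. There were 35 genes below and 23 above the control, which is 60.3% lower against 44.5% of all genes. No gene of the 58 was at least 20% below the control (0, against 5.18% of all genes) or at least 25% above it (0, against 5.91%), which is the same fold in either direction and the size counted throughout. Genes with a mean log2 value of at least 10, to which 52 of the 58 belong, rarely moved that far. Of all 1009 such genes, 0.89% were at least 20% below the control and 0.59% at least 25% above it. Below the control by any amount were 35.4% of the 1009 and 61.5% of the 52. Their medians were 0.03 and -0.01.

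Several genes moved by small amounts at this dose. Rps19, which is mutated in Diamond-Blackfan anaemia, was at 1736 in the control and 1553 at 0.5 µg/ml, a log2 difference of -0.16. Rps28 was at 3154 and 2825 (-0.16), and Rpl37a at 1628 and 1467 (-0.15). The stalk gene Rplp0 was at 4688 and 4272 (-0.13). These genes of both subunits were the low end among the core genes. On the other side, Rpl5, which carries 5S ribosomal RNA into the ribosome and can bind MDM2, was at 4346 in the control and 4856 at 0.5 µg/ml (0.16). Rps10 was at 3032 and 3284 (0.11), and Rpl41, the shortest ribosomal protein, at 6884 and 7343 (0.09).

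At 0.75 µg/ml nearly all of the ribosomal protein genes were slightly lower than in the control. Of the 58 genes past the filter, 54 were below the control (93.1%), against 47.7% of all genes and 42.0% of the 1009 genes with a mean log2 value of at least 10. Their median difference was -0.17 on the log2 scale (middle 50% -0.23 to -0.08), a change of -11.0%. All genes had a median of 0.00 (middle 50% -0.16 to 0.16) and genes with a mean log2 value of at least 10 one of 0.04. Of the 54 core genes, 52 were lower, with a median of -0.18. The differences were small. At least 20% lower were 4 of the 58 (6.90%), against 13.1% of all genes. The share was 8.52% among the 1009 genes with a mean log2 value of at least 10. When each array was centred on its median, 8 of the 58 were that much lower, against 15.2% of all genes. As deposited, 0 were at least 2-fold lower, against 1.57% of all genes. Positive-control probe sets that passed the same filter had a median of 0.05 at this dose.

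**Figure D2:**
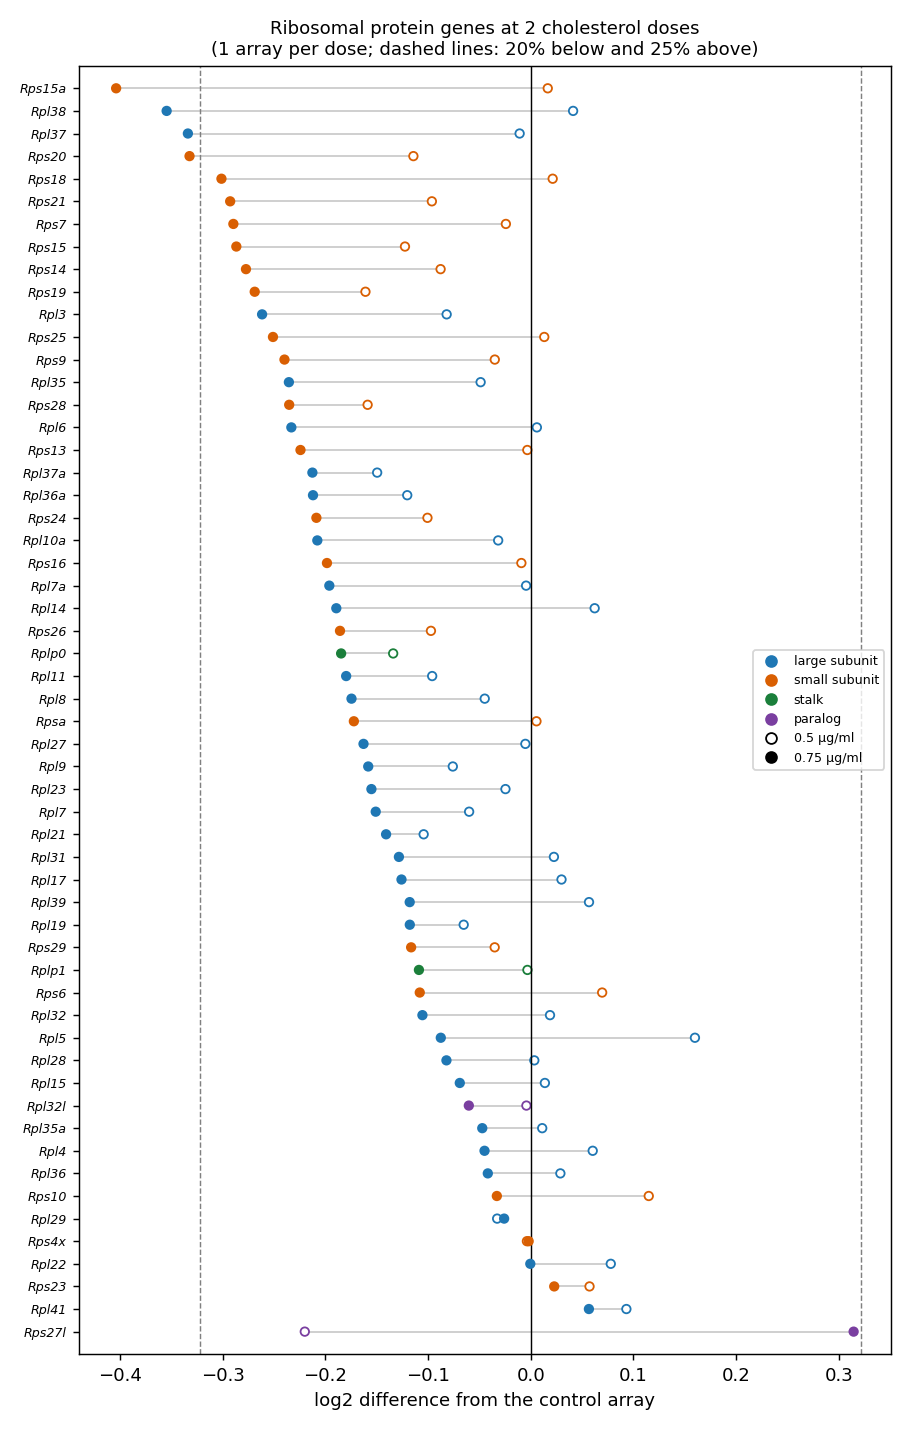
Log2 difference from the control array (horizontal axis) for the 56 ribosomal protein genes above background on all 3 arrays, sorted by the value at 0.75 µg/ml, with open points for 0.5 and filled points for 0.75 µg/ml, coloured by subunit, and dashed lines at 20% below and 25% above the control. Most filled points lie left of 0 and of their open partner, Rps15a is lowest at -0.40, and Rps27l at the bottom runs the other way, from -0.22 to 0.31.

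Small-subunit genes, whose proteins surround the decoding site where messenger RNA is read, were the lower group at 0.75 µg/ml. Of 21, 20 were below the control (95.2%), against 47.7% of all genes, with a median of -0.24 (middle 50% -0.29 to -0.17). Small-subunit genes make up 21 of the 54 core genes. They were 8 of the 10 core genes with the lowest differences and 3 of the 10 with the highest. Rps15a was at 2461 in the control, 2489 at the lower dose and 1860 at the higher dose. It was the lowest core gene, 1.32-fold below the control at the higher dose and level with it at the lower one. Rps20 was at 3695, 3414 and 2935 in the same order, 1.26-fold below the control at the higher dose. Rps18, whose protein sits at the head of the subunit, was at 4463, 4530.2 and 3622 (log2 difference at the higher dose -0.30). These genes were thus lowest on the 0.75 µg/ml array, and only Rps20 was also lower by more than 1.05-fold at 0.5 µg/ml.

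Other small-subunit genes near the low end were Rps21 (-0.29), Rps7 (-0.29), Rps15 (-0.29), Rps14 (-0.28) and Rps19 (-0.27). Rps14, lost in the 5q- form of myelodysplasia in humans, was at 2180.1, 2051 and 1799 from the control to the higher dose. Rps19 was at 1736, 1553 and 1441, so most of its difference was already present at 0.5 µg/ml. Rps26, another anaemia gene, was at 2122, 1984 and 1866, a difference of -0.19 at the higher dose. Rpsa, which encodes the ribosomal form of the laminin receptor, was at 2816, 2827 and 2499 (-0.17). Rps6 was at 4819, 5057 and 4471 (-0.11). The small-subunit genes nearest the control were Rps10 at 3032, 3284 and 2964 (-0.03), Rps4x, an X-linked gene, at 2228, 2222 and 2225 (0.00), and Rps23, a protein of the decoding centre, at 7444, 7746 and 7563 (0.02). The other members of this subunit lay between -0.25 and -0.12.

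Large-subunit genes, whose proteins surround the site of peptide bond formation and the exit tunnel, were lower by a smaller median of -0.15 (middle 50% -0.20 to -0.08) at 0.75 µg/ml. Of 31, 30 were below the control (96.8%), against 47.7% of all genes. The large-subunit median lay 0.08 above that of the small subunit, a difference between medians that has no test here. Rpl38, whose loss in mice changes the translation of Hox genes, was at 2635 in the control, 2711 at the lower dose and 2060.4 at the higher dose, 1.28-fold below the control at the higher dose. Rpl37 was at 2519, 2501 and 1999, 1.26-fold below. Rpl38 and Rpl37 were the large-subunit genes at least 20% lower, and both were within 1.03-fold of the control at 0.5 µg/ml.

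Rpl3, which lies near the peptidyl transferase centre, was at 6375, 6023 and 5317 (-0.26 at the higher dose). The checkpoint genes Rpl11, at 4894, 4579 and 4321 (-0.18), and Rpl23, at 5284, 5195 and 4745 (-0.16), were lower, while Rpl5 was at 4346, 4856 and 4090.1 (-0.09). Rpl5 thus stood above the control at the lower dose and below it at the higher one. Rpl39, a small protein of the exit tunnel, was at 3965, 4124 and 3654 (-0.12). Rpl35a was at 805, 812 and 780 (-0.05), Rpl4 at 6526, 6806 and 6326 (-0.05), Rpl36 at 910, 929 and 884 (-0.04) and Rpl29 at 2635, 2576 and 2589 (-0.03). Rpl22 was at 4414, 4659 and 4413 (0.00), and Rpl41 at 6884, 7343 and 7160.1 (0.06) was the only large-subunit gene above the control at the higher dose. The large-subunit genes not named here lay between -0.24 and -0.07. The stalk genes, whose proteins recruit the translation factors that use GTP, were both lower at 0.75 µg/ml. Rplp0 was at 4688, 4272 and 4124 (-0.18), and Rplp1 at 7754, 7736 and 7190 (-0.11).

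There were 11 measured core genes with a known role outside the ribosome or in anaemia and checkpoint signalling. At 0.75 µg/ml 11 of the 11 were below the control, against 47.7% of all genes. At least 20% lower was 1, Rpl38 (9.09%, against 13.1% of all genes). The share was 8.52% among genes with a mean log2 value of at least 10. The median of the 11, -0.18, was the same as that of the 54 core genes. The count of 11 includes Rpl22, which was below the control by under 0.01 on the log2 scale.

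The paralogs went different ways. Rps27l, a p53-inducible relative of Rps27, was at 584 in the control, 501 at the lower dose and 726 at the higher dose. It was the lowest of all 60 genes at the lower dose (-0.22) and above the control at the higher dose (0.31), where it was higher than any other ribosomal protein gene above background. Rpl32l was at 1153, 1150 and 1106 (-0.06). Rps4l, at 51.3, 59.1 and 67.2, Rpl10l, at 87.4, 86.3 and 82.4, Rpl39l, at 30.1, 26.2 and 26.2, and Rpl3l, the muscle form of Rpl3, at 14.3, 16.0 and 16.0, were under background on all 3 arrays and get no fold. Rps4l was the 1 gene counted as at least 25% higher than the control at 0.75 µg/ml, against 10.8% of all genes, and the count was 0 once all values below 102 had been set to 102.

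Related genes that the symbol rule does not reach included the member of the family with the widest difference. Rpl22l1, the paralog of Rpl22 whose protein opposes that of Rpl22 in blood cell development, was at 438 in the control, 416 at the lower dose and 191 at the higher dose. It was 2.29-fold below the control at the higher dose and 1.05-fold below it at the lower one, while Rpl22 differed by under 1.06-fold on every array. Fau, which encodes the small-subunit protein eS30 fused to a ubiquitin-like part, was at 2387, 2256 and 1938 (-0.30). Rpl7l1 was at 999.5, 1008 and 1118 (0.16), and Rpl36al at 856, 932 and 838 (-0.03). Rsl24d1, an assembly factor related to Rpl24, was at 406, 402 and 406 (0.00). Rps3a1, the mouse gene of the core protein eS1, was at 2194, 2282 and 2078 (-0.08). The retrocopies Rps27rt, at 1037, 994 and 878 (-0.24), and Rpl37rt, at 2949, 2483 and 2146 (-0.46), were lower. Rps3a1 and Rpl37rt were looked up after values were seen. Ribosomal protein genes have many processed copies in the mouse genome with near-identical sequence, so a probe set may also bind transcripts of copies, and the part of this in the values was not tested.

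**Figure D3:**
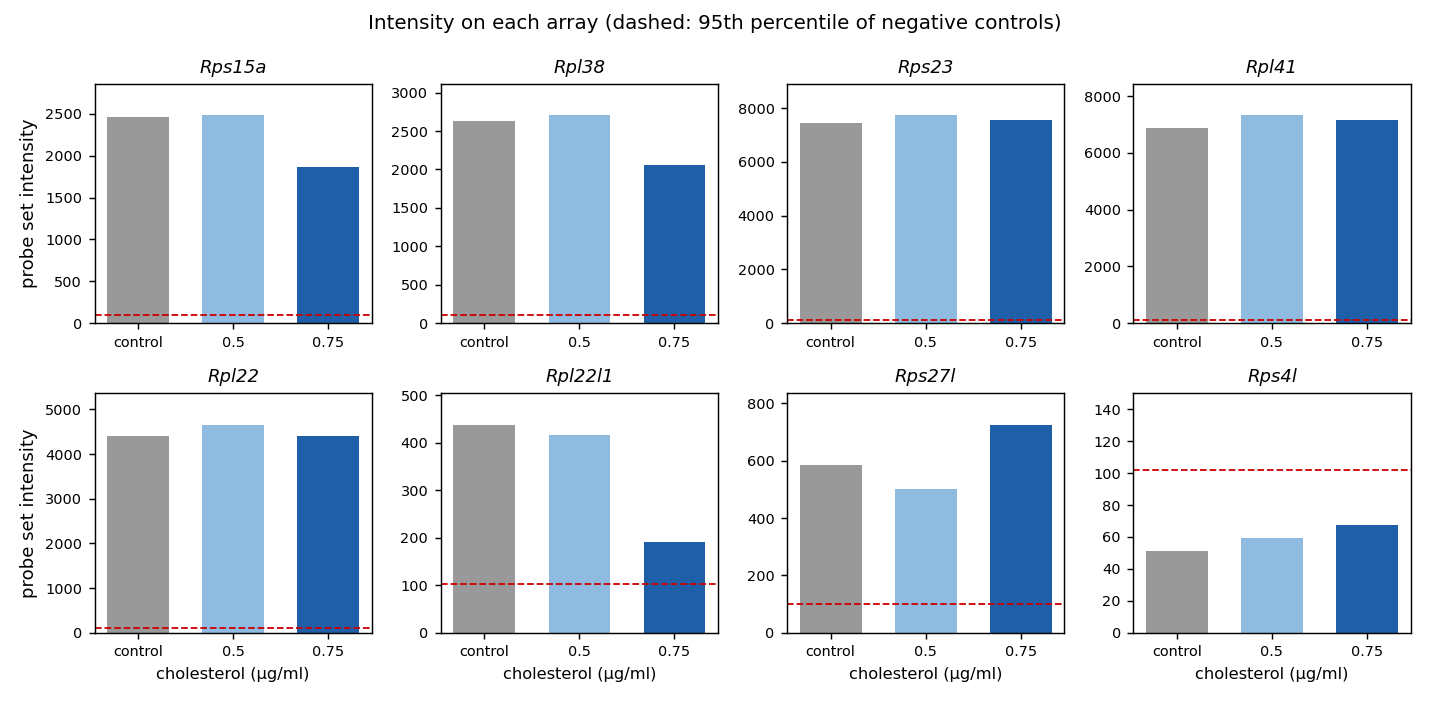
Probe set intensity (vertical axis, linear from 0, with its own scale in each panel) on the control, 0.5 and 0.75 µg/ml arrays for 8 genes, 1 bar per array, with the background of 102 dashed. Rps15a, Rpl38 and Rpl22l1 are low on the 0.75 µg/ml array alone, Rps23, Rpl41 and Rpl22 are nearly level, Rps27l is highest at 0.75 µg/ml, and Rps4l is under background throughout.

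Set directly against each other, the higher dose was below the lower one for most of these genes. Of the 58, 54 were lower at 0.75 than at 0.5 µg/ml (93.1%), against 51.1% of all genes, with a median of -0.13 (middle 50% -0.19 to -0.08). All genes had a median of -0.01. This comparison shares an array with each of the others and is no separate evidence. The small-subunit median was -0.18 and the large-subunit median -0.12. At least 20% lower were 4 of 58 (6.90%), against 11.3% of all genes. The share was 7.63% among genes with a mean log2 value of at least 10. The 4 were Rps15a (-0.42), Rpl38 (-0.40), Rpl37 (-0.32) and Rps18 (-0.32). Rps7 (-0.27) followed. At the other end, Rps27l was 1.45-fold higher at 0.75 than at 0.5 µg/ml, the 1 gene of 58 at least 25% higher, against 7.59% of all genes. Rpl29 (0.01) and Rps4x (0.00) were the core genes above 0.

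Ribosome assembly genes were mostly above the control at 0.75 µg/ml, opposite to the ribosomal proteins. Of 53 measured ribosome assembly and ribosomal RNA processing factors, 49 were above the control (92.5%), against 50.2% of all genes, with a median of 0.23 (middle 50% 0.12 to 0.39). At least 25% higher were 20 (37.7%), against 10.8% of all genes, and 0 were at least 20% lower, against 13.1%. Heatr3, which helps to import Rpl5, was at 473, 594 and 697 from the control to the higher dose (0.56). The RNA acetyltransferase gene Nat10 was at 392, 423 and 624 (0.67), and Noc3l, a factor of large-subunit assembly, at 228, 255 and 351 (0.62). Tsr2, the chaperone that hands Rps26 to the ribosome, was at 88.4, 108 and 134, with the control value under background. At 0.5 µg/ml 36 of the 53 were above the control (67.9%), against 52.9% of all genes, with a median of 0.06.

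Initiation, elongation and termination factors outside the TOP class were above the control in 16 of 17 at 0.75 µg/ml (94.1%), against 50.2% of all genes, with a median of 0.25. The 16 include Eif2b5, under background on all 3 arrays, and Eif2b4, above background at 0.75 µg/ml alone. Eif4e, the cap-binding protein, was at 739, 917 and 940.4 (0.35), Eif4g2 at 1702, 2106 and 2231 (0.39) and the termination factor gene Gspt1 at 803, 810 and 1041 (0.38). Abce1, which splits ribosomes after termination, was at 1439, 1588 and 1753 (0.29). Eif4e and Eif4g2 were about as high at 0.5 as at 0.75 µg/ml, and Gspt1 was high at 0.75 µg/ml alone. Genes of RNA polymerase I, which transcribes ribosomal RNA, and its factors were above the control in 16 of 19 (84.2%). The share was 50.2% of all genes, and the median of the 19 was 0.12. The list also holds subunits that are not specific to this polymerase, such as Polr2e, Polr2f, Polr2h, Polr2k and Polr2l. Cd3eap, among the 16, was above background at 0.75 µg/ml alone. At least 25% higher were 2 of 19 (10.5%), against 10.8%. With each array centred on its median, 10 of 19 were above the control, with a median of 0.08. All genes then had a median of -0.04, with 56.4% of them below the control. Examples of RNA polymerase I genes are Ubtf, at 499, 568 and 631 (0.34), and Polr1e, at 444, 515 and 552 (0.31). Polr2l was at 123, 134 and 145, and Taf1a at 119, 110 and 157.

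Other genes with a TOP start lay between these groups. Of 19 measured, 13 were below the control at 0.75 µg/ml (68.4%), against 47.7% of all genes, with a median of -0.09. This list includes Fau and shares Npm1 with the assembly factors. Eif3f, a subunit of the initiation factor that binds the small subunit, was at 2142, 2000 and 1689 (-0.34), and Eif3k at 2068, 1982 and 1678 (-0.30). Eef2, the translocation factor, was at 8462, 8105 and 7626 (-0.15). The elongation factor gene Eef1a1 was at 9297, 9407 and 9339 (0.01), and Eef1d, which recharges it with GTP, at 1457, 1594 and 1597 (0.13). Mitochondrial ribosomal protein genes serve the separate ribosome of mitochondria. At 0.75 µg/ml 52 of 76 were above the control (68.4%), against 50.2% of all genes, with a median of 0.09. With each array centred on its median, 47 of 76 were above the control, with a median of 0.05. All genes then had a median of -0.04, with 56.4% of them below the control. As deposited, 0 of 76 were at least 20% lower, against 13.1% of all genes. At least 25% higher were 8 (10.5%), against 10.8%. Mrpl37, for example, was at 213, 218 and 296 (0.47). Mrpl36, at 89.3, 124 and 91.5, was above background at 0.5 µg/ml alone, and Mrpl47 and Mrps24 were under background on all 3 arrays.

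**Figure D4:**
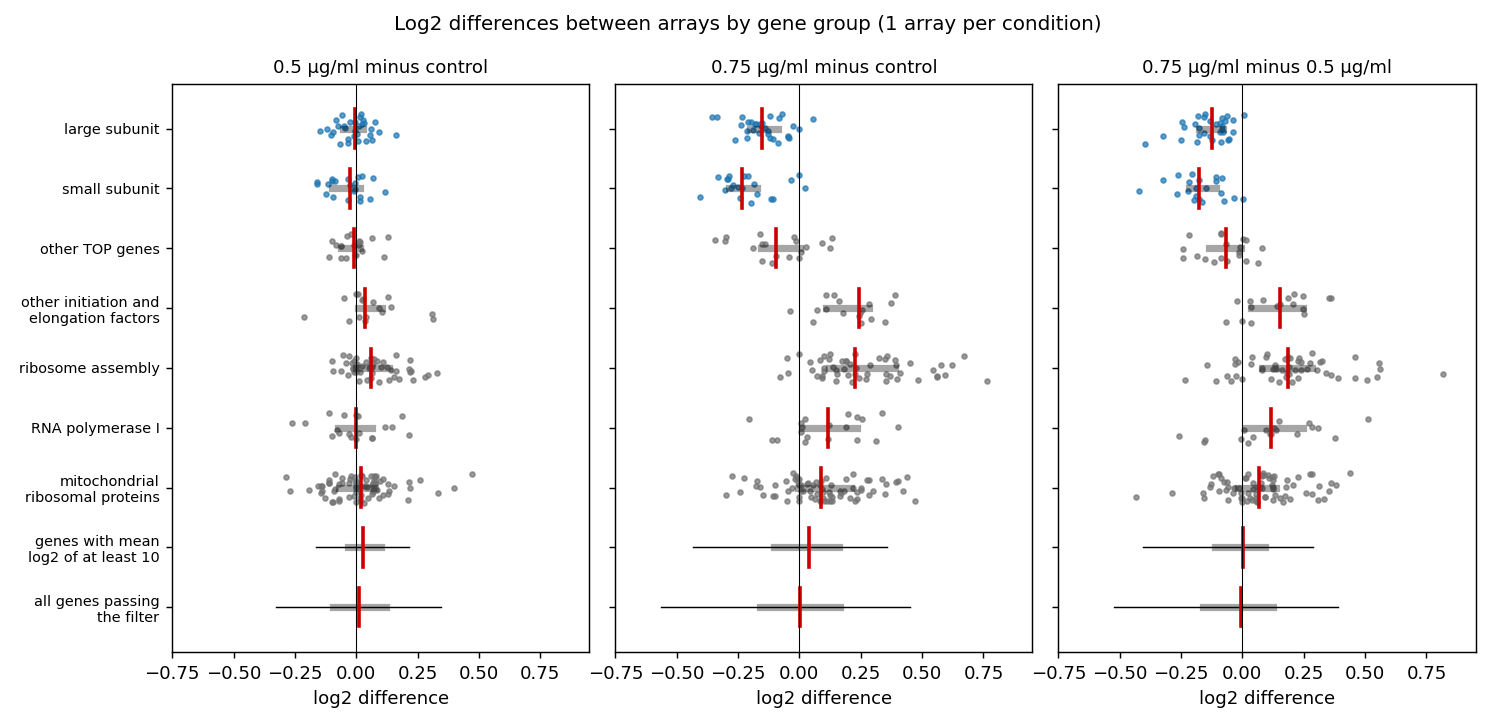
Log2 differences (horizontal axis) in the 3 comparisons by gene group, with 1 point per gene, a red line at the median and a grey bar over the middle 50% of genes, and for the bottom 2 rows a thin line over the middle 90% in place of points. In the middle panel both ribosomal subunits lie left of 0, with medians of -0.15 and -0.24, and ribosome assembly genes lie right of it at 0.23.

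Growth regulators showed no common direction. At 0.75 µg/ml 11 of 20 were below the control (55.0%, against 47.7% of all genes) and 7 above it, with a median of -0.04. Myc was at 5925, 5703 and 5306 (-0.16), and Mtor at 389, 318 and 336 (-0.21). Mxd1, a repressor that opposes MYC, was at 456, 363 and 186, 2.45-fold below the control at the higher dose. Rheb, the activator of mTORC1, was at 452, 566 and 557 (0.30), and the mTOR partner gene Mlst8 at 221, 215 and 320 (0.53). Genes of the free ribosomal protein and p53 checkpoint, a list that holds Rps27l, were above the control in 5 of 8 at 0.75 µg/ml. That is 62.5%, against 50.2% of all genes, with a median of 0.26. Mdm2 was at 1547, 1522 and 1874 (0.28), Ccng1 at 2634, 2681 and 3283 (0.32) and the p53 and stress target Sesn2 at 148, 161 and 235 (0.67). Sesn1 was at 248, 189 and 178 (-0.48). Nop53, a nucleolar protein that binds Rpl11, was at 1387, 1212 and 949 (-0.55), so this list went both ways.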

How the data were processed

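The deposited values are linear intensities, 1 for each probe set on each of the 3 arrays, as their range shows. How the authors corrected background, normalized and summarised them is not given in the sources used here. Per the labels, RNA was extracted with Trizol and biotin-labelled by a whole-transcript sense method. Log2 was taken after a floor of 1 and nothing further was normalized. For the 55 genes with several probe sets the brightest was used. The filter was the median of all probe sets, 5.02 on the log2 scale (32.4), and 10940 genes passed it. All 60 gene identifiers matched RefSeq. Each difference is one log2 value minus another. Counted sizes were 20% lower, 25% higher and 2-fold. Members named are the ends of each comparison, dim members and fixed sets, and up to 4 genes of each related list. The members and lists were chosen with earlier results of these data known. Protein sequences were not used here. The steps, in Python 3.11.15 with numpy 2.4.6, pandas 2.3.3 and matplotlib 3.10.9, were tested on simulated data.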

Additional observations from a re-analysis of the deposited data

Results flagged for a closer look

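Rps27l stood on opposite sides of the control at the 2 doses by at least 1.1-fold each, the only ribosomal protein gene above background to do so, with log2 differences of -0.22 at the lower dose and 0.31 at the higher dose. The difference between the doses was not tested, since each was 1 array, and both share the control array.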

How the results depend on the processing

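Of 144 values recomputed under 11 alternatives, 133 stayed within 0.05 (log2 medians) or 1.5 times (counts) of the reported ones, 11 moved further and 0 medians changed sign. Taking the mean or the dimmest probe set of each gene could change none of these values, and both are counted among the 133. Each of the 60 genes has 1 probe set. The median at 0.75 µg/ml against the control stayed between -0.21 and -0.16, that at 0.5 µg/ml between -0.04 and 0.00, and that between doses between -0.16 and -0.10. The large-subunit median lay 0.12 above the small-subunit one at 0.75 µg/ml with quantile normalization, against 0.08 as reported. This difference was recomputed under 4 of the 11 alternatives. Median centring shifts both medians equally. Raising dim values and dropping the filter do not touch the core genes, so these alternatives could not change it. Without the genes in the brightest 1% of probe sets 24 genes were left, of which 17, 22 and 20 were lower in the 3 comparisons (0.5 and 0.75 µg/ml against the control, then between doses). The shares lower among all genes were 44.5%, 47.7% and 51.1% in the same order. At 0.75 µg/ml against the control, 8 genes were at least 20% lower with median centring (15.2% of all genes). The number at least 25% higher was 2 with quantile normalization and 0 with dim values raised. In these settings the share of all genes at least 25% higher was not computed. That number was also 0 with genes of mean log2 of at least 10 (6.94% of all such genes) and without paralogs (10.8% of all genes). Between doses, 2 were at least 20% lower with quantile normalization (10.7% of all genes). At least 25% higher between doses were 0 with genes of mean log2 of at least 10 (3.47% of all such genes). Without paralogs the number was also 0 (7.59% of all genes). The wider list with Rps3a1 and Rpl37rt was chosen after seeing the data. No paired analysis was possible because each group is 1 array. With 1 array per group, shifts of this size have no replicate spread to be set against.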
